A study of Drosophila melanogaster with 18 samples.

Results

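Small heat shock proteins are chaperones that bind unfolding proteins without using ATP and hold them until chaperones such as Hsp70 can refold them. In Drosophila melanogaster many of their genes lie side by side in a cluster on chromosome arm 3L. Heat switches them on through heat shock factor (Hsf), and Hsp22, Hsp23, Hsp26 and Hsp27 are also known to be switched on without heat at the end of larval life, when the steroid hormone ecdysone rises. The genes described are those of the cluster that the deposited gene table lists under the names Hsp22, Hsp23, Hsp26, Hsp27, Hsp67Ba, Hsp67Bb or Hsp67Bc. Of these 7 names 6 are in the table, out of 12301 genes. Hsp67Bb is not used there as a name. RefSeq gives it as a synonym of CG4456, so the values of CG4456 (FBgn0001228) are given beside those of the 6.

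The series measured N4-acetylcytidine (ac4C), an acetylated cytidine in RNA, by antibody capture and sequencing (ac4C-RIP-seq) in whole 3rd-instar larvae. The first genotype, labelled NAT10 and Xrp1 RNAi, carried RNAi constructs against NAT10, the enzyme that acetylates cytidine, and against Xrp1, a stress-responsive transcription factor. The next, labelled NAT10 RNAi, carried the construct against NAT10 alone, and control larvae carried the driver with no construct named. All 3 carried the driver, daughterless-GAL4 with a temperature-sensitive GAL80, which acts throughout the body. The labels write this driver Dats-GAL4, its control Dats-GAL4/+, and the constructs UAS-NAT10-RNAi and Xrp1-RNAi. Each genotype had 3 replicates of 40 pooled larvae, each with an input and an immunoprecipitated (IP) library. Eggs were laid at 18 °C and first-instar larvae were moved to 30 °C, which releases the driver; every group was thus kept at 30 °C. Control larvae were taken 72 h after that shift and NAT10 RNAi larvae 120 h after it, so genotype and harvest time cannot be told apart in that comparison. No separate harvest time is given for larvae with both constructs, so whether harvest time also differs in their comparisons is not known.

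Input libraries held 15518179 to 21848490 reads in genes with both constructs, 17076581 to 24272099 under NAT10 RNAi and 17291110 to 19223499 in control. Replicate 1 with both constructs stood apart from replicates 2 and 3 of its genotype: counts differed from theirs by a chi-square of 8.15 and 11.6 per degree of freedom, against 3.30 between replicates 2 and 3. The targeted genes check the labels. The NAT10 gene (l(1)G0020) had 6.18, 6.04 and 6.02 FPKM (fragments scaled by gene length and by sequencing depth) with both constructs, 5.22, 5.93 and 5.76 FPKM in the libraries labelled NAT10 RNAi, and 5.13, 4.97 and 5.46 FPKM in control. Its transcript was thus not lower in either RNAi group, and the libraries are called by their labels here. Xrp1 averaged 41.7 FPKM with both constructs, 385 FPKM in libraries labelled NAT10 RNAi and 211 FPKM in control. Whole larvae mix many cell types, so fewer cells that express a gene and less RNA per cell cannot be told apart.

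The 6 genes and CG4456 lie between 9371511 and 9385694 on 3L (build BDGP6), a span of 14.2 kb. In order along the arm they are Hsp67Bc (FBgn0001229, 9371511 to 9372497, minus strand), CG4456 (9372722 to 9374964 in the annotation, plus strand), Hsp22 (FBgn0001223, 9372931 to 9374964, plus), Hsp26 (FBgn0001225, 9376418 to 9377427 in the annotation, minus), Hsp67Ba (FBgn0001227, 9377802 to 9379534, minus), Hsp23 (FBgn0001224, 9381882 to 9382765, plus) and Hsp27 (FBgn0001226, 9384063 to 9385694, plus). Coding spans are short: 522 bases in Hsp22, 558 in Hsp23, 597 in Hsp67Bc, 624 in Hsp26 and 639 in Hsp27, with 1335 in Hsp67Ba. CG4461, which lies between Hsp22 and Hsp26, was not analysed here. Some of these transcripts overlap. All 1900 exon bases of Hsp22 are also exon bases of CG4456 on the same strand, and the reads given to CG4456 came to 102% to 111% of those given to Hsp22 in every library, so these 2 genes cannot be told apart. Hsp67Ba shares 1316 bases, 75.9% of its exons, with the antisense RNA CR43481 on the other strand. Whether the counting used strand is not given in the sources used here, and CR43481 had 92.1% to 97.2% as many reads as Hsp67Ba, so the levels of this pair are uncertain. Hsp27 shares 49 bases with the antisense RNA CR43483, which had at most 0.496% as many reads.

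The level of the cluster lay mostly in Hsp27. FPKM is scaled by gene length, so levels can be compared between genes. Summed over the 6 genes, the level was 2942 ± 243 FPKM with both constructs, 1043 ± 11.1 FPKM in libraries labelled NAT10 RNAi and 3770 ± 123 FPKM in control (SD, n = 3 each). The 3 groups of sums did not overlap. Hsp27 made up 79.1% to 82.7% of the sum with both constructs, 80.1% to 80.4% under NAT10 RNAi and 81.5% to 81.7% in control. Within each genotype the levels followed the order Hsp27, Hsp23, Hsp26, Hsp67Ba, with no overlap between neighbours. Hsp67Bc came next and Hsp22 last with both constructs and in control, while in libraries labelled NAT10 RNAi Hsp22 lay above Hsp67Bc, again without overlap.

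Hsp27, a small chaperone that is found mainly in the nucleus, had 2657, 2177 and 2291 FPKM in the libraries with both constructs, 839, 844 and 828 FPKM in those labelled NAT10 RNAi, and 3183, 2996 and 3049 FPKM in control libraries. The NAT10 RNAi libraries were lowest and the control libraries highest, with no overlap among the 3 groups. Against control, Hsp27 fell by 1.88 ± 0.06 on the log2 scale under NAT10 RNAi (SE; limma on log2(FPKM + 1) across all tested genes, Benjamini-Hochberg adjusted p = 2.36e-09). That corresponds to means 3.68-fold apart. With both constructs it fell by 0.38 ± 0.06 against control (limma, adjusted p = 9.92e-04), and it was higher by 1.50 ± 0.06 than under NAT10 RNAi (limma, adjusted p = 2.26e-08). The widest spread was in the group with both constructs, whose replicate 1 was highest: without it, the difference from control was -0.46.

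Hsp23, a cytosolic small chaperone, followed the same order of groups at a lower level. It had 346, 369 and 372 FPKM with both constructs, 113, 118 and 114 FPKM in libraries labelled NAT10 RNAi, and 488, 445 and 467 FPKM in control. The groups did not overlap. Hsp23 fell by 2.01 ± 0.04 on the log2 scale under NAT10 RNAi against control (limma, adjusted p = 9.13e-11), and by 0.36 ± 0.04 with both constructs against control (limma, adjusted p = 1.13e-04). Between both constructs and NAT10 RNAi it was higher by 1.65 ± 0.04 (limma, adjusted p = 7.33e-10).

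Hsp26, another cytosolic small chaperone that is also made in the germ line, had 133, 126 and 115 FPKM with both constructs, 45.6, 45.4 and 43.2 FPKM in libraries labelled NAT10 RNAi, and 127, 120 and 118 FPKM in control libraries. The libraries with both constructs overlapped those of control, and the NAT10 RNAi libraries lay below all others. Under NAT10 RNAi Hsp26 fell by 1.42 ± 0.05 on the log2 scale (limma, adjusted p = 3.90e-09). The difference between both constructs and control was 0.04 ± 0.05 and did not pass the test (limma, adjusted p = 0.626), whereas against NAT10 RNAi the level with both constructs was higher by 1.46 ± 0.05 (limma, adjusted p = 6.52e-09).

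**Figure D1:**
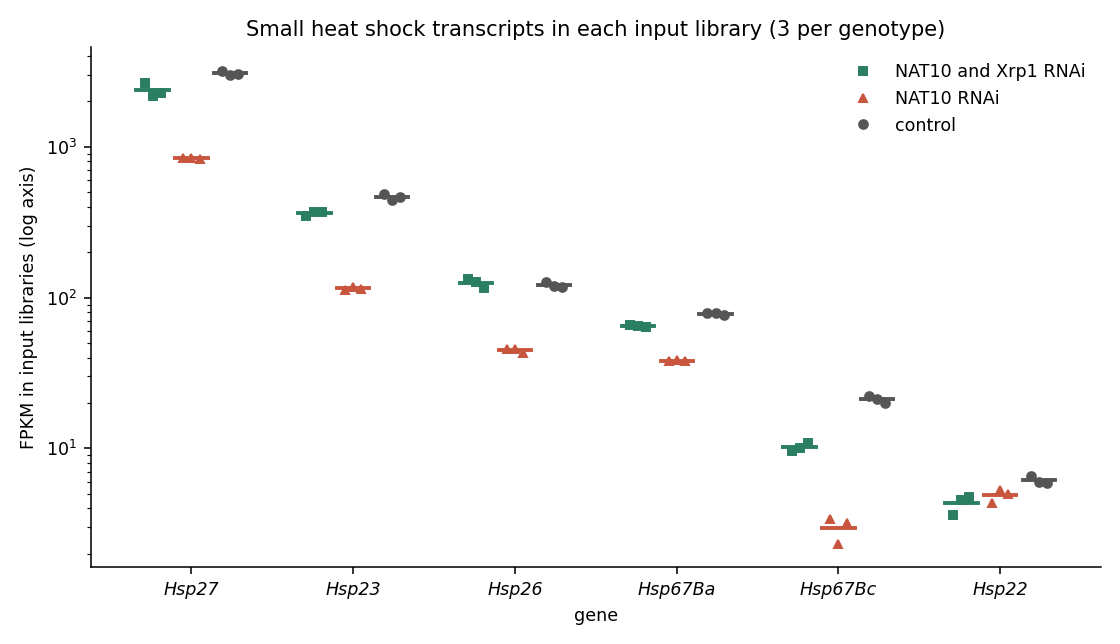
Level of each small heat shock transcript in every input library, in FPKM on a log axis; points are libraries (3 per genotype) and short lines are means, with both constructs at left, NAT10 RNAi in the middle and control at right. Libraries labelled NAT10 RNAi are lowest for the first 5 genes, and for Hsp22 they overlap the libraries with both constructs.

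Hsp67Ba, a longer protein of the same family, had 65.7, 64.8 and 63.9 FPKM with both constructs, 38.2, 38.3 and 37.9 FPKM in libraries labelled NAT10 RNAi, and 79.2, 79.5 and 76.7 FPKM in control. Its replicates lay close together and the groups did not overlap. It fell by 1.02 ± 0.03 under NAT10 RNAi (limma, adjusted p = 6.67e-10) and by 0.27 ± 0.03 with both constructs (limma, adjusted p = 6.16e-05), each on the log2 scale against control. The level with both constructs was higher by 0.75 ± 0.03 than under NAT10 RNAi (limma, adjusted p = 1.42e-08). The antisense RNA CR43481, which shares most of these exon bases, differed from control by -0.96 under NAT10 RNAi and by -0.21 with both constructs.

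Hsp67Bc, which in Drosophila is known to act with the cofactor Starvin in autophagy, showed the largest fold of the 6 under NAT10 RNAi. It had 9.65, 10.0 and 10.8 FPKM with both constructs, 3.38, 2.34 and 3.20 FPKM in libraries labelled NAT10 RNAi, and 22.2, 21.4 and 20.0 FPKM in control. These rest on 148 to 233 reads with both constructs, 56 to 57 reads under NAT10 RNAi and 342 to 406 reads in control. The control mean was 7.13-fold that of NAT10 RNAi and 2.09-fold that of both constructs. On the log2 scale of FPKM + 1, which understates the change of low genes, Hsp67Bc fell by 2.49 ± 0.09 under NAT10 RNAi (limma, adjusted p = 5.27e-09) and by 0.99 ± 0.09 with both constructs (limma, adjusted p = 2.20e-05). Between both constructs and NAT10 RNAi it was higher by 1.50 ± 0.09 (limma, adjusted p = 4.20e-07). With 5 FPKM in place of 1 added before the log, the NAT10 RNAi difference was -1.72, and edgeR on the recovered reads gave -3.05.

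Hsp22, the small heat shock protein of the mitochondrial matrix, did not share this order of groups. It had 3.63, 4.57 and 4.74 FPKM with both constructs, 4.37, 5.33 and 4.98 FPKM in libraries labelled NAT10 RNAi, and 6.58, 6.02 and 5.87 FPKM in control. Control libraries lay above the rest, and the RNAi groups overlapped each other. Hsp22 fell by 0.43 ± 0.09 on the log2 scale with both constructs (limma, adjusted p = 0.00431) and by 0.28 ± 0.09 under NAT10 RNAi (limma, adjusted p = 0.0218). Its difference between both constructs and NAT10 RNAi, -0.15 ± 0.09, did not pass the test (limma, adjusted p = 0.182). The NAT10 RNAi call was lost without replicate 1 of that group (limma, adjusted p = 0.0871) and without replicate 1 of control (limma, adjusted p = 0.0771). CG4456, which shares its reads, averaged 4.22 ± 0.531 FPKM with both constructs, 4.71 ± 0.450 FPKM under NAT10 RNAi and 5.77 ± 0.404 FPKM in control (SD, n = 3 each), and its NAT10 RNAi difference of -0.25 had an adjusted p of 0.0324 by limma.

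Read as a group, all 6 genes fell under NAT10 RNAi against control, where 18.9% of the 11557 tested genes fell and 47.3% rose. Of the 6, 5 were at least 2-fold lower on the log2(FPKM + 1) scale, a size reached by 2.09% of tested genes in that direction. With 5 FPKM added in place of 1, 4 of the 6 were. In order from the largest fall among those 11557 genes, Hsp67Bc stood at place 42, Hsp23 at 66, Hsp27 at 72, Hsp26 at 131, Hsp67Ba at 225 and Hsp22 at 1484. The median difference of the 6 was -1.65, beside 0.17 over all tested genes. The authors' deposited table of differential genes for this comparison lists Hsp67Bc at -3.06, Hsp23 at -2.21, Hsp27 at -2.07, Hsp26 at -1.63 and Hsp67Ba at -1.23 (log2 fold change), and does not list Hsp22 or CG4456; from its values, that table holds genes with FDR under 0.01 and a log2 fold change of at least 1 in size.

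With both constructs against control, 5 of the 6 genes fell and Hsp26 was not called, where 19.2% of tested genes fell and 21.5% rose. None of the 6 was at least 2-fold lower on that scale, against 0.519% of tested genes, although Hsp67Bc at -0.99 lay at the limit and passed it when 0.1 FPKM was added in place of 1. The median of the 6 was -0.37, beside 0.00 over all tested genes. Of the 6, the authors' deposited table for this comparison lists Hsp67Bc alone, at -1.06.

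Between both constructs and NAT10 RNAi, 5 of the 6 genes were higher with both constructs and Hsp22 was not called, where 15.2% of tested genes rose and 46.1% fell. The rise was at least 2-fold for Hsp23, Hsp27, Hsp67Bc and Hsp26, that is 4 of the 6, a size reached by 1.6% of tested genes. With other processing settings the rise of Hsp67Bc was as low as 0.93, under that size. The median of the 6 was 1.48, beside -0.16 over all tested genes. These 3 comparisons share their libraries in pairs, so they are given side by side and are not independent. Rescaling the libraries by their median ratio moved the median of all tested genes to 0.01 for NAT10 RNAi against control and to 0.00 for both constructs against NAT10 RNAi, and the share of calls that were rises to 50.3% from 71.4% and to 50.6% from 24.8% in the same order. No call or called direction of the 6 genes changed with it; the uncalled difference of Hsp22 between both constructs and NAT10 RNAi became 0.01.

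**Figure D2:**
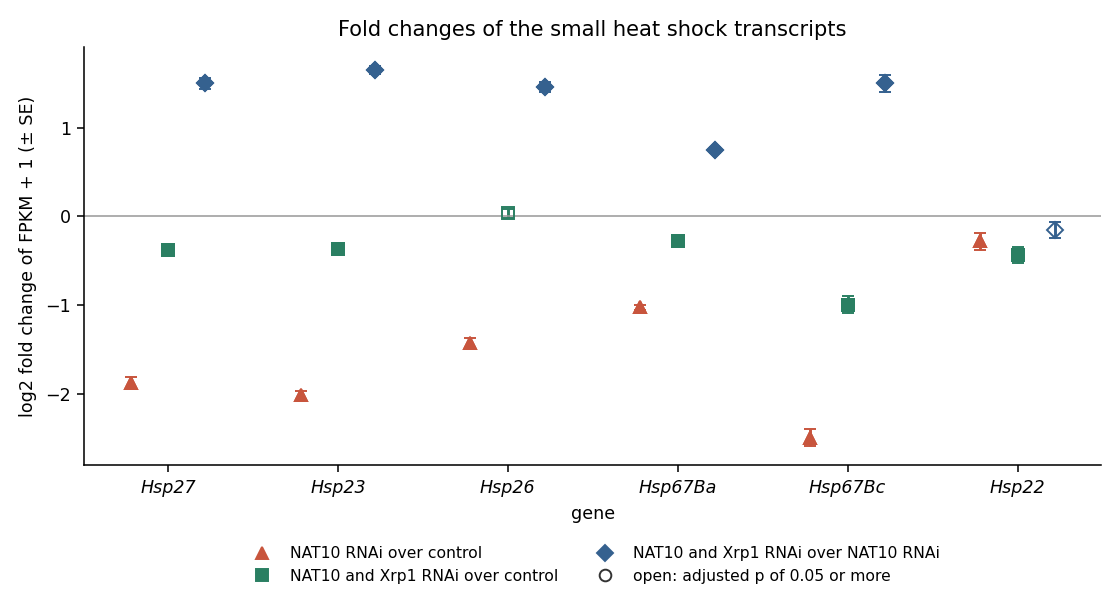
Differences of the 6 small heat shock transcripts in the 3 comparisons, as log2 fold change of FPKM + 1 with the SE of the limma fit (n = 3 libraries per genotype); open symbols did not pass an adjusted p of 0.05. Hsp67Bc is lowest under NAT10 RNAi at -2.49, where Hsp22 at -0.28 is nearest to 0.

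Shares of the less abundant genes in the summed level differed between some genotypes and overlapped between others. Hsp26 made up 4.04% to 4.58% of the sum with both constructs, 4.19% to 4.38% under NAT10 RNAi and 3.16% to 3.26% in control. Hsp67Ba made up 2.04% to 2.36% of the sum with both constructs, 3.64% to 3.67% under NAT10 RNAi and 2.03% to 2.17% in control. Hsp67Bc made up 0.300% to 0.378% with both constructs, 0.222% to 0.324% under NAT10 RNAi and 0.536% to 0.583% in control. For Hsp22 the share was 0.113% to 0.166% with both constructs, 0.419% to 0.506% under NAT10 RNAi and 0.157% to 0.168% in control. The share of Hsp67Ba and of Hsp22 was thus highest under NAT10 RNAi and that of Hsp67Bc highest in control, with no test of these shares.

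Genes beside the cluster did not all move with it. Of the neighbours, which were picked by position after their values were known, Fdx1 to the left differed by 0.53 under NAT10 RNAi and by 0.07 with both constructs, on the log2 scale against control. CG4452, next to it, differed by -0.28 under NAT10 RNAi and by -0.04 with both constructs. To the right, the antisense RNA CR43483, which overlaps the end of Hsp27, differed by -0.97 under NAT10 RNAi, and CR43482 beyond it by -2.14. CR43483 shares 10.5% of its exon bases with Hsp27 and the strand setting is not given, so its level is uncertain. With both constructs the difference of CR43482 was -2.79, so this RNA was lower there than under NAT10 RNAi, by 0.65 (limma, adjusted p = 0.00168). That is opposite in sign to the 5 small heat shock genes called in the same comparison, and to CR43483, which was higher by 0.65 with both constructs than under NAT10 RNAi (limma, adjusted p = 9.33e-04). CG4080, the next gene to the right in the table, had the order of groups seen for Hsp27: it fell by 0.65 under NAT10 RNAi and by 0.17 with both constructs against control, and was higher by 0.49 with both constructs than under NAT10 RNAi (limma, adjusted p = 1.30e-07, 0.00618 and 1.88e-06).

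**Figure D3:**
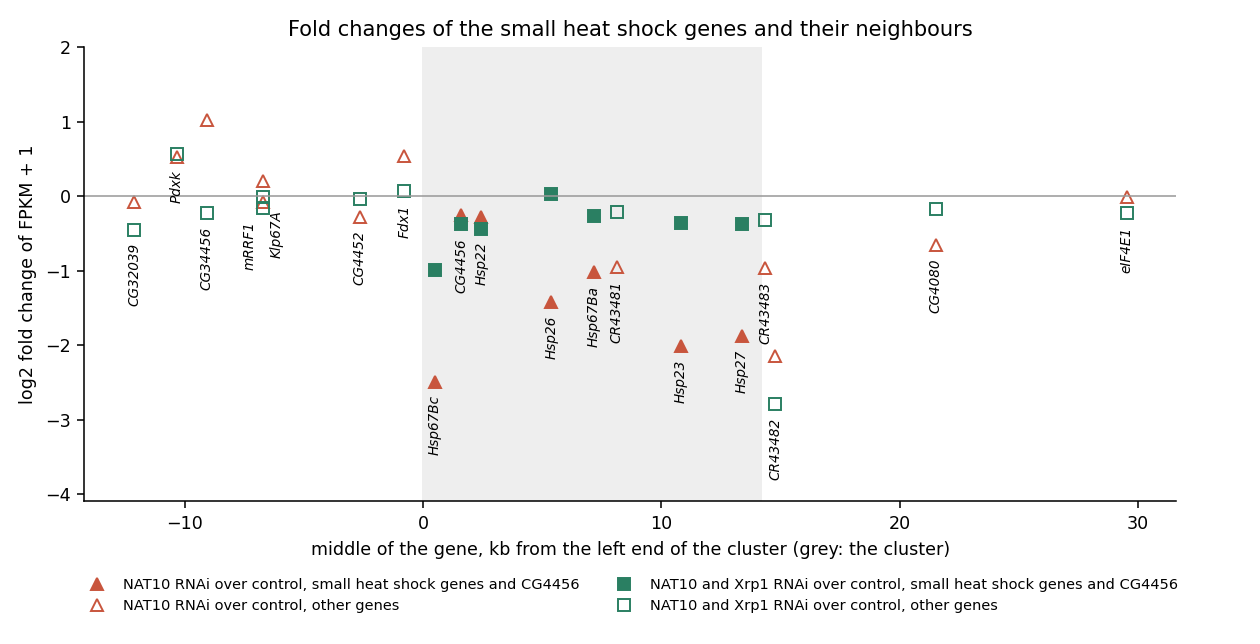
Differences from control, as log2 fold change of FPKM + 1, against the middle of each gene in kb from the left end of the cluster, which is shaded; filled symbols are the small heat shock genes and CG4456, open symbols other genes. Under NAT10 RNAi the lowest value inside the cluster is that of Hsp67Bc at its left end, and Fdx1 just outside lies above 0.

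Small heat shock genes elsewhere in the genome were mixed. CG14207, a member of the family on another chromosome, averaged 1084 ± 50.7 FPKM with both constructs, 490 ± 9.43 FPKM in libraries labelled NAT10 RNAi and 1322 ± 49.2 FPKM in control (SD, n = 3 each). It fell by 1.43 under NAT10 RNAi and by 0.29 with both constructs against control, and was higher by 1.14 with both constructs than under NAT10 RNAi, all called by limma. l(2)efl, a relative of the lens alpha-crystallins, averaged 317 ± 19.6 FPKM with both constructs, 151 ± 2.98 FPKM under NAT10 RNAi and 238 ± 17.9 FPKM in control. It fell by 0.65 under NAT10 RNAi but rose by 0.41 with both constructs against control. CG13133 was near 1 FPKM throughout, at 0.818 ± 0.209 FPKM with both constructs, 1.34 ± 0.278 FPKM under NAT10 RNAi and 0.770 ± 0.0776 FPKM in control, and was higher under NAT10 RNAi by 0.40. CG7409 was not analysed here.

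The inducible Hsp70 genes, whose proteins refold clients using ATP, did not all change in the same direction under NAT10 RNAi. Of 7 genes, 4 rose and 2 fell under NAT10 RNAi against control (4 and 3 after rescaling), where 47.3% of all tested genes rose and 18.9% fell. With both constructs 6 rose and none fell against control, where 21.5% of all tested genes rose. All 7 were higher with both constructs than under NAT10 RNAi, where 15.2% of all tested genes were higher. Hsp70Bb averaged 413 FPKM with both constructs, 242 FPKM under NAT10 RNAi and 2.25 FPKM in control. Hsp70Ba averaged 27.6 FPKM with both constructs, 15.3 FPKM under NAT10 RNAi and 1.77 FPKM in control. Hsp70 genes are near-identical copies, so how reads were divided among them is uncertain. Control larvae had no construct named, and whether all reads given to Hsp70Bb and Hsp70Ba came from these genes was not tested. Hsp68, a distinct gene of this family, resembled Hsp26 in its groups: it averaged 67.8 ± 2.37 FPKM with both constructs, 35.1 ± 0.954 FPKM under NAT10 RNAi and 66.3 ± 1.32 FPKM in control, with a fall of 0.90 under NAT10 RNAi and an uncalled difference of 0.03 with both constructs.

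Other chaperones and their cofactors were mixed. Among 18 tested genes 11 rose and 2 fell under NAT10 RNAi against control (11 and 7 after rescaling), beside 47.3% of all tested genes that rose and 18.9% that fell. The median difference of the 18 was 0.50, beside 0.17 over all tested genes. Hsp60C, a mitochondrial chaperonin, rose by 1.11, Hsp60B by 0.85, Hsc70-1 by 0.79 and Hsp60A by 0.73. The 2 that fell were Hsc70-3, the Hsp70 of the endoplasmic reticulum, at -0.70 and Hsc70Cb, a nucleotide exchange factor, at -0.47. With both constructs 10 rose and 4 fell against control (9 and 3 after rescaling), where 21.5% of all tested genes rose and 19.2% fell. Between both constructs and NAT10 RNAi 4 were higher and 11 lower with both constructs (6 and 7 after rescaling), where 15.2% of all tested genes were higher and 46.1% lower.

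**Figure D4:**
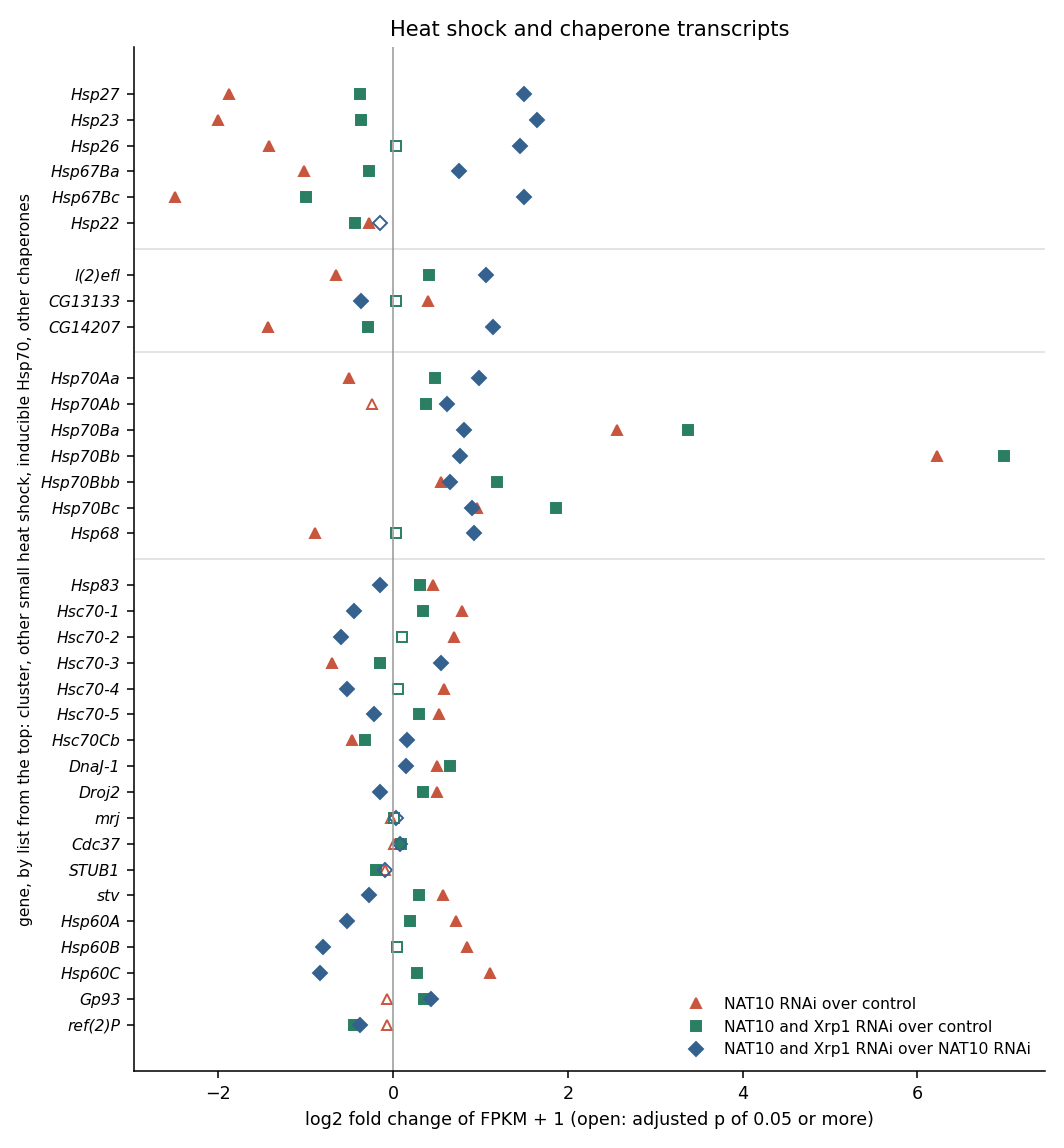
Differences in the 3 comparisons, as log2 fold change of FPKM + 1, for the cluster, the other small heat shock genes, the inducible Hsp70 genes and the other chaperones; open symbols did not pass an adjusted p of 0.05. Under NAT10 RNAi all 6 genes of the cluster lie below 0, while 11 of the 18 other chaperones were called above it.

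Transcripts of the factors known to act on these genes differed from one another. Hsf, the heat shock factor, averaged 13.3 ± 0.154 FPKM with both constructs, 14.1 ± 0.786 FPKM in libraries labelled NAT10 RNAi and 14.3 ± 0.585 FPKM in control, and was called in none of the 3 comparisons; after rescaling it was called lower under NAT10 RNAi, by 0.21. EcR, the ecdysone receptor, averaged 34.9 ± 1.55 FPKM with both constructs, 22.8 ± 0.347 FPKM under NAT10 RNAi and 34.0 ± 0.467 FPKM in control. It fell by 0.56 under NAT10 RNAi, was higher by 0.59 with both constructs than under NAT10 RNAi, and was not called between both constructs and control (limma, adjusted p = 0.506). Its partner usp, the transcription factor foxo and Trl, the GAGA factor, were not called against control in either group, with differences between -0.08 and 0.13 on the log2 scale. After rescaling usp and Trl were called lower under NAT10 RNAi, by 0.23 and 0.28. Irbp18, the partner of Xrp1, was not called under NAT10 RNAi at 0.13 and fell by 0.50 with both constructs.

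The ecdysone response list held 24 tested genes. Under NAT10 RNAi 19 fell and 3 rose against control (20 and 1 after rescaling), with a median of -0.66, where 18.9% of all tested genes fell and 47.3% rose. With both constructs 9 fell, 4 rose and 11 were not called against control (8 fell and 4 rose after rescaling), with a median of -0.07, where 19.2% of all tested genes fell and 21.5% rose. Between both constructs and NAT10 RNAi 17 were higher and 3 lower with both constructs (19 and 1 after rescaling), with a median of 0.53, where 15.2% of all tested genes were higher and 46.1% lower. ImpE2, an ecdysone-inducible gene of imaginal discs, averaged 252 FPKM with both constructs, 31.6 FPKM in libraries labelled NAT10 RNAi and 366 FPKM in control. The nuclear receptor gene Eip78C averaged 18.2 FPKM with both constructs, 2.19 FPKM under NAT10 RNAi and 21.1 FPKM in control. Hr4, another nuclear receptor gene, averaged 17.0 FPKM with both constructs, 1.76 FPKM under NAT10 RNAi and 16.2 FPKM in control. E23, a transporter gene induced by ecdysone, averaged 26.1 FPKM with both constructs, 5.21 FPKM under NAT10 RNAi and 24.8 FPKM in control. ImpE2 and Eip78C thus fell in both RNAi groups against control, as Hsp23 and Hsp27 did, whereas Hr4 and E23, like Hsp26, were not called between both constructs and control. The list was not uniform: the nuclear receptor gene ftz-f1 averaged 9.17 FPKM with both constructs, 19.7 FPKM under NAT10 RNAi and 7.18 FPKM in control, higher in each RNAi group than in control.

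Markers of stage and tissue also differed between the groups, and their part in the small heat shock levels was not tested. Counts of these genes stand beside 18.9% of all tested genes that fell and 47.3% that rose under NAT10 RNAi, and 19.2% that fell and 21.5% that rose with both constructs, each against control. The 10 salivary glue and related genes of late larvae summed to 5199 to 5361 FPKM with both constructs, 4816 to 4955 FPKM under NAT10 RNAi and 36521 to 41148 FPKM in control. Of these 10, 8 fell under NAT10 RNAi and 7 fell with both constructs. The 6 fat body genes of late larvae summed to 11514 to 12854 FPKM with both constructs, 8163 to 8400 FPKM under NAT10 RNAi and 10735 to 10905 FPKM in control. Of these 6, 5 fell and 1 rose under NAT10 RNAi, and 4 rose and 1 fell with both constructs. The 16 muscle genes summed to 9872 to 10127 FPKM with both constructs, 12693 to 12901 FPKM under NAT10 RNAi and 5977 to 6199 FPKM in control, with 14 higher under NAT10 RNAi and 15 higher with both constructs. The 9 neuron genes summed to 161 to 169 FPKM with both constructs, 226 to 228 FPKM under NAT10 RNAi and 195 to 196 FPKM in control. Of these 9, 5 rose and 1 fell under NAT10 RNAi, and 1 rose and 3 fell with both constructs. The neuron gene brp weighs heavily in these sums. It averaged 11.5 FPKM with both constructs, 53.2 FPKM under NAT10 RNAi and 37.1 FPKM in control. The 12 testis and germ line genes summed to 309 to 323 FPKM with both constructs, 419 to 429 FPKM under NAT10 RNAi and 279 to 289 FPKM in control. No gene of these lists was at 0 in a whole group.

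Other transcripts had much the same pattern over the 9 input libraries, measured by Pearson's r of log2(FPKM + 1) among 7163 genes with a mean of at least 5 FPKM. The libraries fall into 3 clusters by genotype, so r is a description only. For Hsp27 the most alike were MED9, CG42518 and ImpE2, with r of 0.998, 0.998 and 0.997, and 41 genes reached 0.99. For Hsp23 they were Orct, Spn43Aa and Nna1, and 81 genes reached 0.99. Hsp26 was most like prage, Pu and E23, with 49 genes at 0.99 or more. Hsp67Ba was most like its antisense neighbour CR43481, then Rpn5, a proteasome subunit gene, and lqf, with 77 genes at that level. For Hsp67Bc the nearest were Usp14 and Rpt1, genes of a deubiquitinase and a subunit of the proteasome, and CG9932, and 23 genes reached 0.99. Hsp22 had none at 0.99: its nearest was CG14104 at 0.974, followed by oc and mei-W68.

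Peaks of ac4C were listed once per genotype, so peaks carry no replicate error, and the fold enrichment of each is the authors' value and is not compared between lists. All 6 genes had at least 1 listed peak on their exons and strand with both constructs, 5 of 6 in the list labelled NAT10 RNAi and all 6 in the control list. Of 11500 tested genes that the annotation holds, 81.7% had one with both constructs, 82.3% under NAT10 RNAi and 83.7% in control, so a listed peak was the usual state of a tested gene. The gene without one under NAT10 RNAi was Hsp67Bc, which there had 56 to 57 input reads per library. The control list held 11 separate regions on the 6 genes. Of these, 9 overlapped a region listed with both constructs, 8 a region listed under NAT10 RNAi, and 7 regions in both RNAi lists.

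On Hsp27 the lists place a peak across the end of the coding span and the start of the 3′ UTR in every genotype. It ran over 3L:9384804-9385133 with both constructs at a fold enrichment of 2.16 to 2.70, over 3L:9384804-9385071 under NAT10 RNAi at 1.50 to 1.54, and over 3L:9384745-9385044 in control at 1.42 to 1.45, where ranges are over the entries for its transcripts. Hsp27 also had a region at its 5′ end in all 3 lists. Hsp23 had a coding peak and a 3′ UTR peak in each list. Its 3′ UTR peak covered 3L:9382584-9382765 with both constructs at 2.96 to 5.85, 3L:9382584-9382706 under NAT10 RNAi at 1.87 to 1.97, and 3L:9382559-9382765 in control at 3.84 to 8.76.

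Hsp26 had a peak at its 3′ end in each list, with a fold enrichment of 4.42 with both constructs, 5.65 under NAT10 RNAi and 3.04 in control. In the NAT10 RNAi list that peak was confined to 91 bases of the 3′ UTR, against 387 bases that reach into the coding span in the lists for both constructs and control. A second, coding peak of Hsp26 was listed in control alone. Input reads of Hsp26 per library were 2084 to 2550 with both constructs, 788 to 1113 under NAT10 RNAi and 2066 to 2339 in control. Whether read number shaped these peaks was not tested. Hsp67Ba had a coding peak near its middle in all 3 lists, at 1.71 with both constructs, 2.24 under NAT10 RNAi and 2.19 in control. That middle peak is listed with the same ends to within 1 base and an equal fold on the other strand for CR43481, so it cannot be given to 1 strand. The same holds for a second coding region of Hsp67Ba with both constructs, at 1.37. In control, a second coding region at 1.93 overlaps a CR43481 region at 2.03, so its strand is uncertain too. Hsp67Bc had the same 91-base coding region, 3L:9372168-9372258, with both constructs at 1.62 and in control at 1.56. Hsp22 had regions that differ between lists: 2 in the 5′ UTR with both constructs, 1 in the coding span under NAT10 RNAi, and 1 of each kind in control, the coding one reaching the 3′ UTR. All of these lie on exon bases shared with CG4456. Of those in the 5′ UTR of Hsp22, 3L:9373263-9373510 with both constructs and 3L:9373078-9373510 in control lie on the coding span and 3′ UTR of CG4456.

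**Figure D5:**
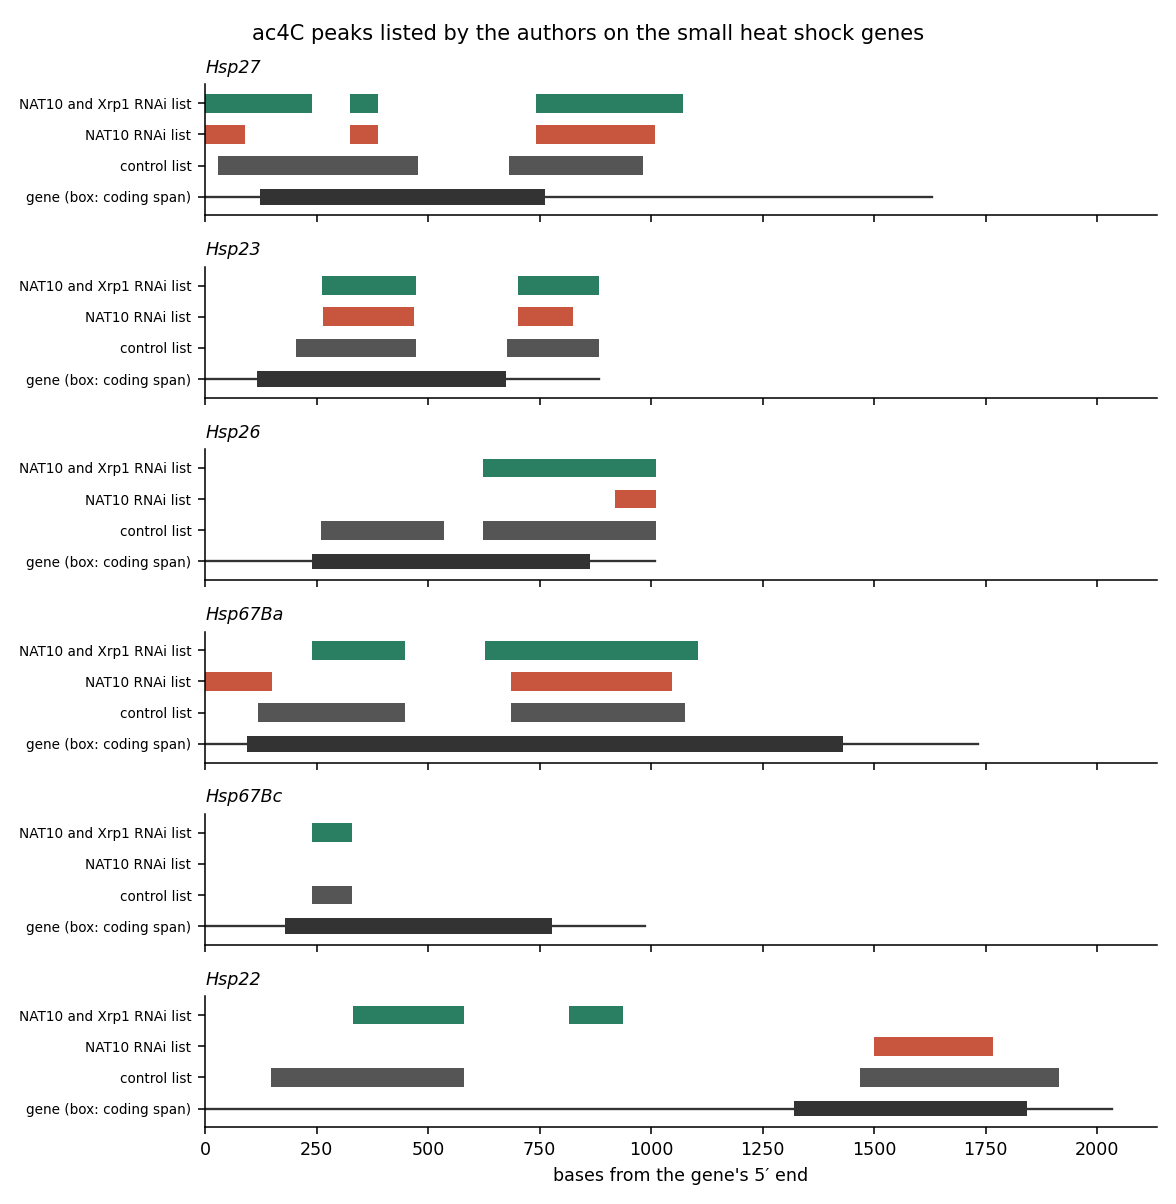
Regions listed by the authors as ac4C peaks on each small heat shock gene, in bases from the gene's 5′ end, with 1 row per genotype list and the gene drawn below with its coding span as a box. Hsp27, Hsp23 and Hsp26 have a region near the 3′ end of the coding span or beyond it in every list, and Hsp67Bc has none in the NAT10 RNAi list.

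No peak of the 6 genes is in the authors' deposited tables of differential peaks, which list 1336 peaks for NAT10 RNAi against control and 1316 for both constructs against control. The control peak list has 31666 entries, with 11 regions on the 6 genes, so finding none of them listed is no result about these genes. From their values, these tables have an FDR of up to 0.403 and 0.392, with 166 and 204 peaks under 0.05, in the same order. Within the cluster they list 1 peak, on the 5′ UTR of CG4456 upstream of the bases shared with Hsp22 (3L:9372722-9372811), for both constructs against control; in the peak lists the same region has a fold of 2.17 under NAT10 RNAi and 1.92 in control and has no entry with both constructs. IP reads in it were 28, 40 and 28 with both constructs and 51, 45 and 47 in control. Input reads in it were 13, 16 and 20 with both constructs and 12, 7 and 11 in control. The ratio of IP to input reads was thus 2.15, 2.50 and 1.40 with both constructs and 4.25, 6.43 and 4.27 in control, without correction for library size. This peak is shown because the authors list it as differential with these same reads, so the ratios are no separate evidence of a change. The authors' deposited table gives it a log2 change of -1.26 with p = 0.00651 and FDR = 0.128. These counts are small, so the ratios are imprecise.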

How the data were processed

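Whole larvae of 3 genotypes were profiled with 3 replicates each, giving 9 input and 9 IP libraries. The labels do not say that replicates came from separate crosses or days, so p-values measure only the spread between these samples, which may be technical. Per the labels' protocols, polyadenylated RNA was cut to about 100 nt, 10% was kept as input, and libraries carried identifiers of 12 bases. Build BDGP6 and the aligner STAR 2.7.6a are named, per the submitters' processing notes. These notes also list HOMER 4.9.1, deepTools 3.5.1 and bedtools 2.30.0, the trimmer fastp 0.23.1, and Subread 1.5.1 with its counter featureCounts. Not given in the sources used here: the peak caller, the differential tools, the strand setting and whether identifiers were used.

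For each gene and input library the authors gave FPKM, per the file headers. The deposited tables of differential genes and peaks give the authors' log2 fold change with p-values and FDR, and those of peaks also hold read counts per library. Each deposited peak list gives the authors' fold enrichment, a ratio, with its FDR. Peak starts are counted from 0 in those files, judged from their match to transcript starts, and are printed counted from 1. Columns of per-library values repeated in the differential gene tables, 12 in all, were not used.

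Levels were tested with limma 3.58.1 (trend and robust settings, R 4.3.3) on log2(FPKM + 1) for genes with at least 1 FPKM in at least 3 libraries, all 9 input libraries in 1 fit with no block, two-sided, Benjamini-Hochberg over 11557 genes, threshold 0.05. FPKM times gene length was divided by its smallest value above 0 in each library, which was taken as 1 read. This gave whole numbers in 100% of values (tolerance 0.1), used as recovered reads. On these, edgeR 4.0.16 called 7602, 5141 and 6764 genes and DESeq2 1.42.0 called 6824, 4229 and 5881. The order is NAT10 RNAi against control, both constructs against control, and both constructs against NAT10 RNAi. In that order limma called 7653, 4710 and 7094. The fitting was tested on simulated data. Counting error alone does not cover the spread between replicates.

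The genes and lists were chosen with earlier results of these data known. Named genes are the cluster's genes and those overlapping or between them, the other small heat shock genes and regulators, up to 4 called genes of largest fold in a list, and the 3 transcripts most alike. Examples in the chaperone list other than these, Hsp68, ftz-f1 and the neighbours were named after their values were seen. Promoter motifs and protein identity were not analysed here. Alternatives were other pseudocounts, no filter, rescaling, 2-genotype fits, a replicate block, leaving out each replicate, the count tests, and stricter peak limits.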

Additional observations from a re-analysis of the deposited data

How the results depend on the processing

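Every called difference of the 6 genes kept its direction in all 18 alternatives, and every call held except that of Hsp22 under NAT10 RNAi, lost without replicate 1 of that group or of control. The count of the 6 that fell under NAT10 RNAi was 5 to 6 over the leave-one-out fits. With both constructs against control, the count at least 2-fold lower was 0 as reported and 1 with 0.1 FPKM added, after rescaling, with edgeR and with DESeq2; it was 0 to 1 over the leave-one-out fits, 1 without replicate 3 of either group. The gene was Hsp67Bc, whose value lies at that limit. Under NAT10 RNAi against control, the count at least 2-fold lower was 4 with 5 FPKM added, against 5 as reported. Over the 18 alternatives the value of Hsp67Ba nearest 0 in that comparison was -0.95, under 2-fold. Between both constructs and NAT10 RNAi, the lowest value of Hsp67Bc over the alternatives was 0.93, also under 2-fold.

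Counts over all genes moved more. For NAT10 RNAi against control, genes that fell numbered 3645 after rescaling, 3666 with edgeR and 3431 with DESeq2, and DESeq2 called 3393 that rose, against 2185 and 5468 as reported. Those at least 2-fold lower were 146 with 5 FPKM added, 490 with edgeR and 504 with DESeq2, against 241. For both constructs against control, those at least 2-fold lower were 94 with 0.1 FPKM added, 32 with 5 FPKM, 103 with edgeR and 102 with DESeq2, against 60. Between both constructs and NAT10 RNAi, 3185, 3491 and 2836 genes were lower and 3256, 3273 and 3045 higher after rescaling, with edgeR and with DESeq2, against 5333 and 1761. Those at least 2-fold higher were 113 with 5 FPKM added, 372 with edgeR and 381 with DESeq2, against 185. Why these counts moved was not tested.

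Same-numbered replicates did not deviate together (r between -0.07 and 0.08), so no shared effect of the replicate number was seen. Whether same-numbered samples were handled together is not shown by this. A replicate block gave 7581, 4539 and 7016 called genes in the 3 comparisons and changed no call of the 6 genes. With a peak FDR under 0.01, 1 region of Hsp22 left the list with both constructs. Asking for an overlap of 50% of the shorter region, 9 control regions overlapped one listed with both constructs, 7 one under NAT10 RNAi and 6 regions in both. Depth limits Hsp67Bc and Hsp22 most, with 56 to 406 and 107 to 246 reads per library.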
